A study of Mus musculus with 32 samples.

Results

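The genes described here encode the splicing machinery and the hnRNPs, the proteins that cut introns out of new transcripts and that coat those transcripts in the nucleus. They were chosen by symbol from the names beginning with Sf3a, Sf3b, Srsf or the older Sfrs, Hnrnp, Prpf and Snrp, and had to reach 1 RPKM (a read density scaled to gene length and library size) in at least 4 of the 32 libraries. Of 22216 gene entries, 63 carried such a symbol, and 61 of these 63 were among the 11154 genes that passed the filter. The 2 that did not pass were Srsf12, whose highest level in any library was 0.0678 RPKM, and Snrpn, which was listed at 0 in all 32 libraries. At the other side of the filter, Prpf40b was the scarcest gene to pass, at 0.864 to 3.71 RPKM and above 1 RPKM in 31 of 32 libraries.

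All 32 libraries came from dendritic cells grown from C57BL/6 mouse bone marrow with the cytokine GM-CSF and harvested on day 9. In 4 groups the mice were wild type (WT) and in the other 4 they were mice lacking both Lmp7 and Mecl1 (labelled dKO, Lmp7-/-Mecl1-/-), the immunoproteasome subunits encoded by Psmb8 and Psmb10. Cells of each genotype were left without lipopolysaccharide (LPS) or matured with 1 ug/mL LPS for 1, 2 or 6 h, which gives 8 groups of 4 replicates. The labels do not say whether replicates were separate mice, separate cultures or repeat libraries, and every p-value is therefore relative to library-to-library spread, which may be technical.

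Introns are removed by the spliceosome, which is built from small nuclear ribonucleoproteins (snRNPs). Most spliceosomal snRNPs carry a ring of Sm proteins on their RNA, the SF3a and SF3b complexes anchor the U2 snRNP at the branch point, and Prpf proteins act in the U4/U6.U5 tri-snRNP and in the activation of the assembled particle. SR proteins usually favour the use of the exons they bind, whereas many hnRNPs mask splice sites, package transcripts or accompany them to the cytoplasm. In dendritic cells and macrophages LPS starts a large burst of new transcripts, many of which have to pass through this machinery.

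Deposited signal, taken here as aligned bases, ranged from 1.27 to 1.87 Gb per library, and 9188 to 10701 genes reached 1 RPKM. Psmb8 lay at 150.3 to 312 RPKM in WT and 2.67 to 7.42 RPKM in dKO libraries, and Psmb10 at 41.6 to 131.2 RPKM and 2.37 to 17.1 RPKM, so both targeted genes followed the genotype labels. By correlation over all genes, all 16 WT libraries but 11 of 16 dKO libraries were nearest to the WT mean of their own time. The 5 others were the library labelled dKO 0 h replicate 2 (nearest to 1 h), dKO 1 h replicate 2 (2 h), dKO 2 h replicate 2 (0 h), dKO 2 h replicate 4 (6 h) and dKO 6 h replicate 4 (2 h). Il6, a cytokine gene that LPS switches on, read 1124 RPKM in the library labelled dKO 0 h replicate 2, against 0.836 to 2.04 RPKM in the other 3 of its group, and 1.67 RPKM in the library labelled dKO 2 h replicate 2. These libraries kept their labels here, and results on dKO libraries are also given without all 5, which leaves 3, 3, 2 and 3 dKO libraries at 0, 1, 2 and 6 h. The dendritic cell markers Itgax (170.4 to 527.8 RPKM), H2-Ab1 (1421 to 2882 RPKM) and Cd74 (4873 to 8973 RPKM) were high in every library, and the T cell markers Cd3d and Cd3e never exceeded 0.245 RPKM. The full list of 6 T and NK cell markers rose with LPS. It summed to 0.189 to 0.841 RPKM in WT cells at 0 h and 3.62 to 3.83 RPKM at 6 h. In dKO libraries it summed to 0.160 to 0.675 RPKM at 0 h and 1.19 to 4.35 RPKM at 6 h. Lists of other myeloid cells were well above 0 in every library, with 12 macrophage markers summing to 763 to 2576 RPKM and 9 neutrophil markers to 206 to 1269 RPKM.

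The members differed widely in level. The SR protein gene Srsf5 was the most abundant member, with a mean of 94.6 RPKM over the 32 libraries, followed by Hnrnpk, an hnRNP that binds C-rich RNA, at 91.0 RPKM, and Hnrnpa2b1, which packages nuclear RNA, at 87.4 RPKM. In the Sm ring Snrpb was highest at 76.1 RPKM and Snrpg the lowest member with reads at 19.3 RPKM. Among the U1 and U2 snRNP proteins Snrpb2 (27.6 RPKM) was highest and Snrpa1 (12.8 RPKM), its partner in the U2 snRNP, lowest. Sf3b1, the large scaffold of SF3b, stood at 69.0 RPKM and Sf3b4 at 8.02 RPKM, while the SF3a subunits Sf3a3 and Sf3a1 stood at 15.5 and 6.78 RPKM. Among the Prpf genes Prpf38b was most abundant at 47.8 RPKM and Prpf40b least at 2.16 RPKM. Hnrnpa3 was the scarcest hnRNP at 8.79 RPKM, but its value rests on 97 counted bases, 1.86% of its annotated exon bases, and Hnrnpa1, a major hnRNP of most cells, read 8.82 RPKM from 530 bases. Snrpf was counted over 246 bases, Hnrnph3 over 404 and Sf3b5 over 734. Genes of the Sm ring and of the hnRNP A family have many processed copies in the genome, and how reads shared with such copies were counted is not given in the sources used here, so levels of these genes are uncertain.

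The summed RPKM of the 63 genes fell step by step through LPS maturation. In WT cells the sum was 2564 ± 28.3 RPKM (SD, n = 4) at 0 h, 2085 ± 56.7 at 1 h, 1825 ± 72.5 at 2 h and 1634 ± 67.2 at 6 h. No WT library of 1 time overlapped with those of another time. As a share of all RPKM, the members went from 0.650% at 0 h to 0.405% at 6 h. In dKO libraries the means were 2182 ± 237, 1827 ± 85.6, 1805 ± 302 and 1592 ± 142 RPKM (SD, n = 4). Without the 5 libraries they were 2300 RPKM (n = 3), 1860 (n = 3), 1733 (n = 2) and 1521 (n = 3). Sums of the hnRNPs took the largest part of this total, 1030 RPKM in WT cells at 0 h and 627 RPKM at 6 h. The Prpf class had another course, with 296 RPKM at 0 h, 209 at 1 h, 188 at 2 h and 230.1 at 6 h in WT cells. Its share of the members' sum went from 11.6% at 0 h to 14.1% at 6 h. Most of the net rise from 2 to 6 h came from Prpf38a and Prpf38b, described below. Without this pair the share was not higher at 6 h than at 0 h.

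**Figure D1:**
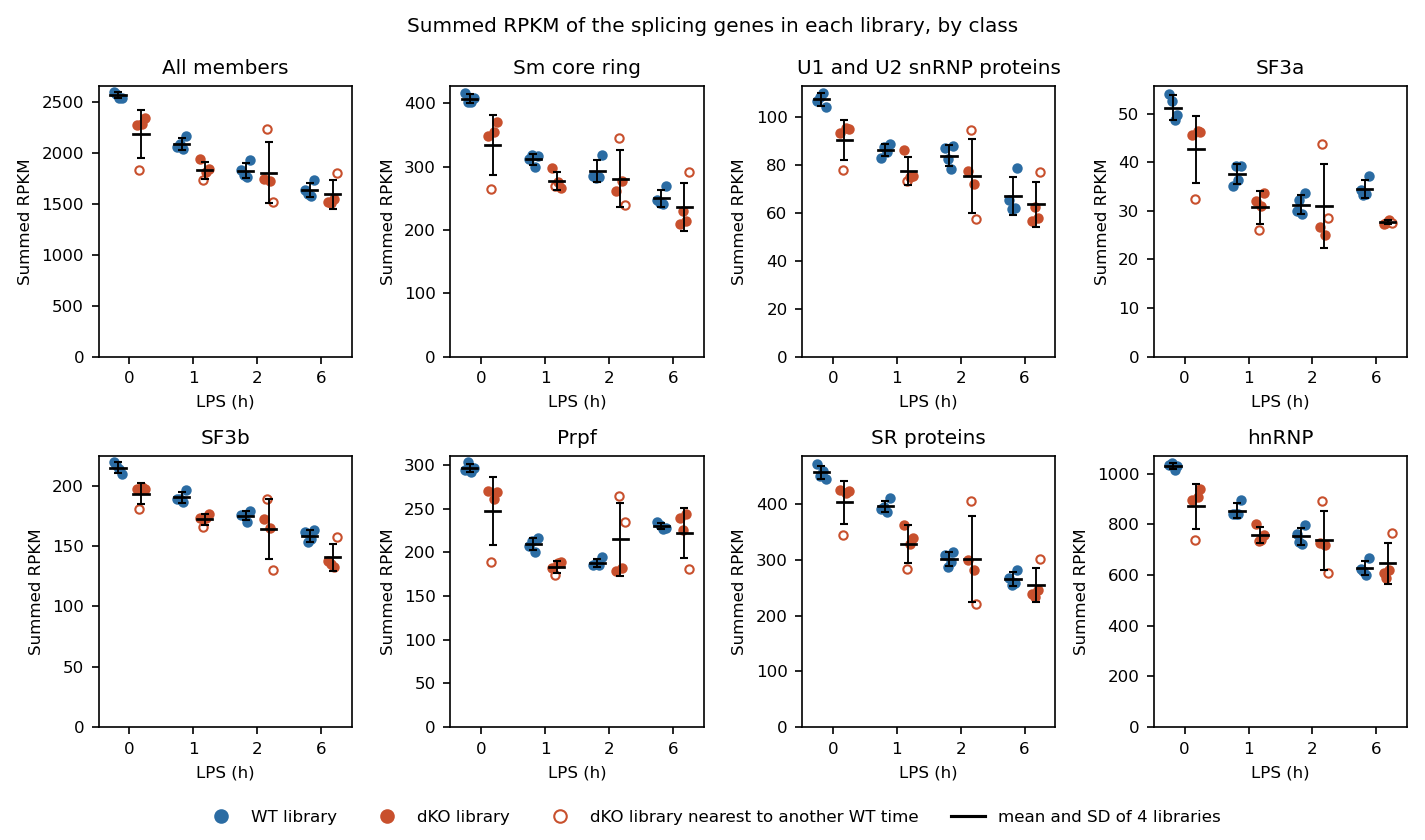
Summed RPKM of each class of splicing gene (y axis, linear, from 0) against hours of LPS (x axis), 1 point per library, with bars for the mean and SD of 4 libraries and open points for the 5 dKO libraries nearest to another WT time. The 4 WT libraries sit at 2540 to 2597 RPKM at 0 h and 1578 to 1728 RPKM at 6 h for all members. In WT cells the Prpf class rises again between 2 and 6 h, mostly through Prpf38a and Prpf38b.

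A fall in RPKM was also the rule across the genome, and the members are best read against it. The median log2 change of all 11154 genes in WT cells was -0.42 at 1 h, -0.73 at 2 h and -0.65 at 6 h, and that of the 61 members was -0.39, -0.56 and -0.73. When each library was instead scaled by the median of its ratios to the mean library, which puts the median of all genes within 0.03 of 0, the members' medians were 0.08, 0.23 and -0.05. In the test used throughout (limma on log2 of RPKM + 0.5, Benjamini-Hochberg adjusted over all genes, called under 0.05), 1 member was higher and 34 lower at 1 h, where 52.3% of all genes were called, 6.84% higher and 45.5% lower. At 2 h 1 member was higher and 44 lower (79.7% of all genes called, 68.5% lower), and at 6 h 3 were higher and 50 lower (75.8% called, 60.9% lower). Leaving out the 5 dKO libraries, which touch these WT comparisons through the shared estimate of spread, gave 4 higher and 47 lower at 1 h (79.7% of all genes called, 68.7% lower). The counts were 4 and 51 at 2 h (89.2%, 74.9% lower), and 5 and 53 at 6 h (88.1%, 69.6% lower). With the scaling the counts became 9 higher and 4 lower at 1 h (15.2% and 13.1% of all genes), 24 and 10 at 2 h (30.7% and 31.1%), and 16 and 14 at 6 h (32.6% and 33.8%). The direction of the class as a whole therefore follows the scaling, and 11 members at 2 h and 6 at 6 h were called lower in RPKM and higher after scaling. Called the same way under both at 1 h were Sf3b1, higher, and Sf3a1, Prpf4b, Prpf3 and Prpf31, lower. At 2 h these were Prpf38a, higher, and 10 lower members, and at 6 h Hnrnpc, Prpf38a and Prpf38b, higher, and 14 lower members.

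**Figure D2:**
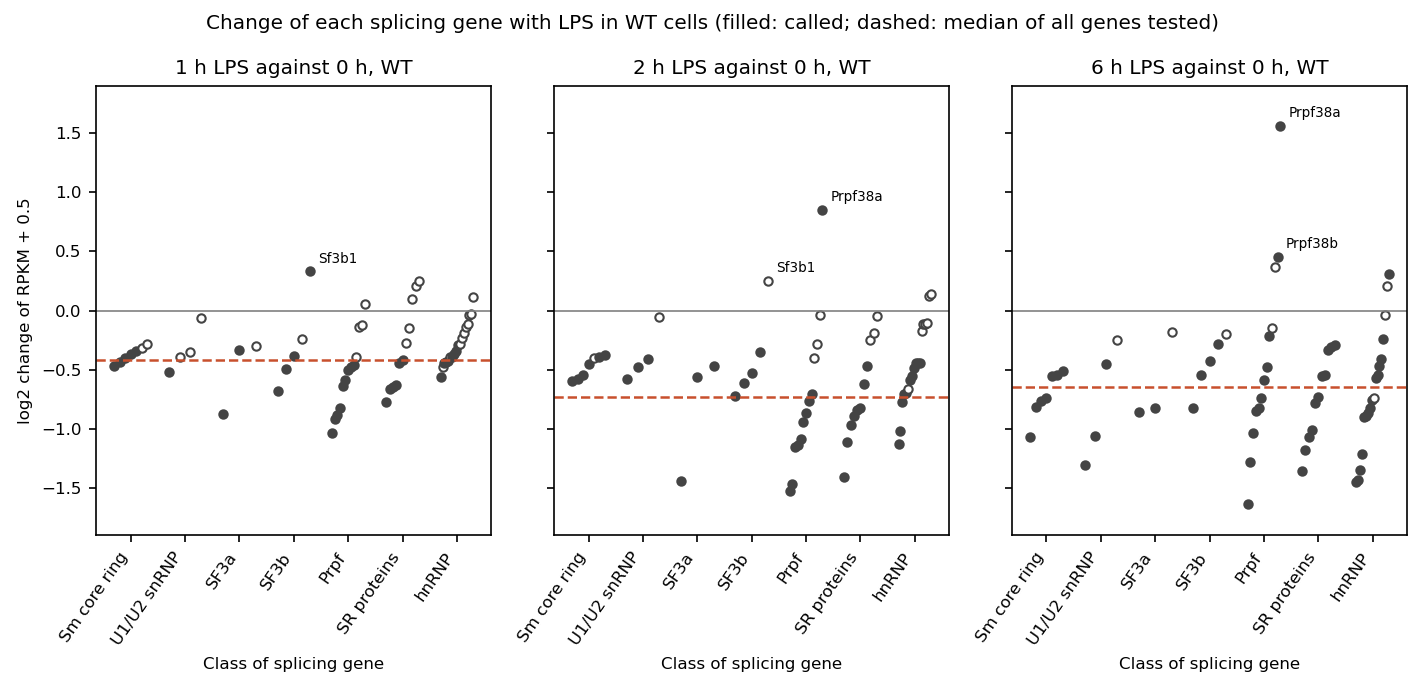
log2 change of RPKM + 0.5 (y axis) for each of the 61 members by class (x axis) in WT cells after 1, 2 and 6 h of LPS against 0 h; filled points were called by limma, open points were not, and the dashed line is the median of all 11154 genes tested. Prpf38a stands highest at 2 and 6 h, at 0.85 and 1.56, while most members lie near or around the dashed line at -0.42, -0.73 and -0.65.

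Prpf38a and Prpf38b, relatives of a yeast protein needed to activate the spliceosome, were called higher in WT cells after 6 h of LPS. Prpf38a (chr4:108237472-108251941, mm9) read 11.6, 10.2, 11.0 and 11.0 RPKM in the 4 WT libraries at 0 h, 11.3, 12.5, 10.0 and 12.0 at 1 h, 20.9, 19.2, 19.4 and 21.2 at 2 h, and 33.5, 33.1, 31.1 and 35.6 at 6 h. The libraries of 0 and 1 h overlapped, and every library at 2 and 6 h lay above all earlier ones. Its log2 change was 0.06 ± 0.25 (SE) at 1 h (adjusted p = 0.848), 0.85 ± 0.25 at 2 h (adjusted p = 0.00309) and 1.56 ± 0.25 at 6 h (adjusted p = 4.58e-06). Prpf38b (chr3:108705725-108714622, mm9) dipped before it rose. It read 45.8, 46.2, 49.4 and 46.4 RPKM at 0 h, 35.1, 32.7, 33.8 and 34.1 at 1 h, 40.3, 36.1, 39.9 and 37.5 at 2 h, and 63.0, 67.4, 67.5 and 60.5 at 6 h. The 1 h libraries all lay below, and the 6 h libraries all above, those of 0 h, with log2 changes of -0.46 ± 0.17 (adjusted p = 0.0267) and 0.46 ± 0.17 (adjusted p = 0.0181). After scaling the 1 h value was 0.02, and the 6 h value was 1.14.

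The upstream sequences of this pair are shown beside those of Hnrnpl and Srsf2, 2 of the members that fell furthest by 6 h, because each of the 4 holds a CCAAT box, a motif bound by the factor NF-Y. Each line gives the 250 bases before the annotated start of transcription, 5′ to 3′ on the strand of the gene, from RefSeq on GRCm38.p6, a later build than the mm9 of the files. Capitals mark each CCAAT box (letters CCAAT, or ATTGG where it lies on the other strand) and each TATA box (letters TATAAA on either strand).
Prpf38a (GRCm38.p6 chr4:108579337-108579586, minus strand): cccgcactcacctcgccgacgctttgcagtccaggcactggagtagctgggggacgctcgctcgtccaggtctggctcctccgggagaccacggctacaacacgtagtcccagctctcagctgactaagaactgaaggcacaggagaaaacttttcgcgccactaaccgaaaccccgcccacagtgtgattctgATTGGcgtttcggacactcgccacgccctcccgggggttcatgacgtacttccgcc
Prpf38b (GRCm38.p6 chr3:108911730-108911979, minus strand): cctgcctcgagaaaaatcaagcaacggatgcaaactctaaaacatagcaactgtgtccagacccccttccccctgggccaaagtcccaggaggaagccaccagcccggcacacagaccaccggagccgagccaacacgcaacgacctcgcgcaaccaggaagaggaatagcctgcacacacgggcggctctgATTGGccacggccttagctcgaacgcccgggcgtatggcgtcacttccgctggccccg
Hnrnpl (GRCm38.p6 chr7:28810640-28810889, plus strand): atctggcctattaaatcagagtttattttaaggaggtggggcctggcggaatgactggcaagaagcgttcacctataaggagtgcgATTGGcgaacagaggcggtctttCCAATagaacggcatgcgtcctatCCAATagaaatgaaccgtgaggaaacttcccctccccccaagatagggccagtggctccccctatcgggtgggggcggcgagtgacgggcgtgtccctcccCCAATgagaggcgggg
Srsf2 (GRCm38.p6 chr11:116853095-116853344, minus strand): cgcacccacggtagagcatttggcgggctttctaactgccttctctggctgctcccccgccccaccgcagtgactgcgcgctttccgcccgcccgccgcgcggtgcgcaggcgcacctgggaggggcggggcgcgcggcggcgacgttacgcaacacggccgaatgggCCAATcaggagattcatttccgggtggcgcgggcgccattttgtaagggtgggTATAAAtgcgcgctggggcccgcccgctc
The CCAAT box of Prpf38a began 56 bases and that of Prpf38b 58 bases before the start, each on the strand opposite to the gene. Hnrnpl held 4 such boxes, 164, 141, 117 and 16 bases before its start, and Srsf2 held 1 at 82 bases together with a TATA box at 29 bases. A CCAAT box on either strand was found in 35 of 75 upstream sequences of the members (46.7%) and in 33.9% of all 32851, so the motif is common. Entries existed for 55 of the 63 genes. An ETS motif (letters CCGGAAG, both strands) was found in 28.0% of the members' sequences and 6.91% of all, and an SP1 motif (letters GGGCGG, both strands, not capitalised above) in 61.3% and 32.7%. These are letter matches within 250 bases and describe the sequences only.

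Sf3b1 and Hnrnpc were the other members called higher than at 0 h in WT cells with all 32 libraries. Sf3b1 (chr1:55042013-55084322, mm9) read 64.8, 64.3, 66.3 and 65.8 RPKM at 0 h, 82.9, 83.4, 79.5 and 83.3 at 1 h, 79.7, 80.5, 75.6 and 75.8 at 2 h, and 53.5, 55.7, 54.3 and 51.1 at 6 h. It was thus above its starting level in every library at 1 and 2 h and below it in every library at 6 h. The log2 change was 0.33 ± 0.12 at 1 h (adjusted p = 0.0227), 0.25 ± 0.12 at 2 h (adjusted p = 0.0521) and -0.28 ± 0.12 at 6 h (adjusted p = 0.0343). Scaling turned the 6 h value to 0.40 (adjusted p = 0.0782). Hnrnpc, which binds U-rich stretches of introns, climbed in small steps. Its libraries read 53.1, 54.1, 51.7 and 54.5 RPKM at 0 h, 57.0, 58.8, 57.1 and 57.8 at 1 h, 58.0, 56.9, 60.3 and 59.8 at 2 h, and 67.1, 66.5, 64.3 and 67.1 at 6 h. The 6 h log2 change was 0.31 ± 0.07 (adjusted p = 0.000312).

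A group made mostly of Prpf genes fell early and stood higher again at 6 h than at 2 h. Prpf4b, a kinase that phosphorylates tri-snRNP proteins, read 21.5, 21.6, 22.2 and 23.4 RPKM at 0 h, 12.4, 13.5, 11.4 and 12.1 at 1 h, 7.15, 7.63, 7.57 and 7.21 at 2 h, and 13.5, 13.7, 12.9 and 12.4 at 6 h. The 4 groups did not overlap except those of 1 and 6 h. Its log2 change was -0.82 ± 0.19 at 1 h (adjusted p = 0.00138), -1.52 ± 0.19 at 2 h (adjusted p = 1.49e-06) and -0.74 ± 0.19 at 6 h (adjusted p = 0.000939), the last of which was -0.06 after scaling. Prpf3, a U4/U6 snRNP protein, went from 10.1 ± 0.458 RPKM to 5.29 ± 0.488, 3.39 ± 0.711 and 5.54 ± 0.889 (SD, n = 4). Its U4/U6 partner Prpf4 went from 4.24 ± 0.385 RPKM to 1.81 ± 0.0943, 3.08 ± 0.292 and 5.62 ± 0.287. Sf3a1, the largest SF3a subunit, went from 12.3 ± 0.344 RPKM to 6.47 ± 0.323, 4.20 ± 0.337 and 6.74 ± 0.525. Sfrs18, an SR-related protein placed here by its symbol, went from 24.8 ± 0.719 to 14.3 ± 0.811, 9.05 ± 0.580 and 14.3 ± 1.19. The lowest mean was at 1 h in Prpf4 and at 2 h in the other 4 genes.

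The step from 2 to 6 h, a comparison added after the data had been seen, gave the counts for this turn. Between 2 and 6 h 12 members were called higher and 14 lower, where 26.1% of all genes were called higher and 19.5% lower (45.6% in all). Of the 12 that rose, 8 were Prpf genes, out of 13 Prpf genes measured and none of them lower. After scaling the members split into 9 higher and 29 lower (26.9% and 26.6% of all genes), and the Prpf genes into 6 higher and 3 lower. Members called higher under both were Prpf3, Prpf4, Prpf4b, Prpf18, Prpf38b, Prpf40b, Sf3a1 and Sfrs18. Members called lower under both included Sf3b1, Hnrnpk, Hnrnpu, Srsf2, Srsf3, Snrpb and Snrpa1. In the step from 1 to 2 h 1 member was higher, Prpf38a, and 17 were lower (7.24% and 25.6% of all genes, 32.8% in all); scaling gave 8 and 3 (13.2% and 15.4%).

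Another group, led by Prpf19, Hnrnpl and Srsf2, fell through the whole course. Prpf19, the ubiquitin ligase at the core of the complex that activates the spliceosome, read 41.6, 44.3, 39.6 and 40.8 RPKM in WT cells at 0 h, 27.1, 25.1, 24.9 and 29.1 at 1 h, and 16.5, 17.2, 17.7 and 22.7 at 2 h. At 6 h it read 14.6, 11.4, 11.5 and 14.9 RPKM. Each time lay below the one before it in every library, and the 6 h log2 change was -1.64 ± 0.24 (adjusted p = 1.84e-06). Hnrnpl, which binds CA repeats and silences exons such as those of the Cd45 gene, read 95.2, 89.6, 91.6 and 95.0 RPKM at 0 h, 59.4, 65.7, 64.1 and 62.0 at 1 h, 41.7, 42.5, 40.3 and 44.2 at 2 h, and 32.8, 33.6, 34.8 and 33.2 at 6 h. Its groups did not overlap at any step, and its 6 h log2 change was -1.45 ± 0.20 (adjusted p = 6.79e-07). Srsf2, an SR protein that also binds promoter-proximal RNA, read 97.6, 87.5, 91.9 and 86.7 RPKM at 0 h, 60.2, 52.6, 53.7 and 68.5 at 1 h, 56.1, 47.1, 46.5 and 55.6 at 2 h, and 36.5, 32.1, 31.7 and 41.4 at 6 h. The 1 and 2 h libraries overlapped, and all 4 libraries at 6 h lay below every earlier one, with a log2 change of -1.35 ± 0.22 (adjusted p = 5.65e-06). After scaling the 6 h values of the 3 genes were -0.96, -0.77 and -0.67, all still called.

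**Figure D3:**
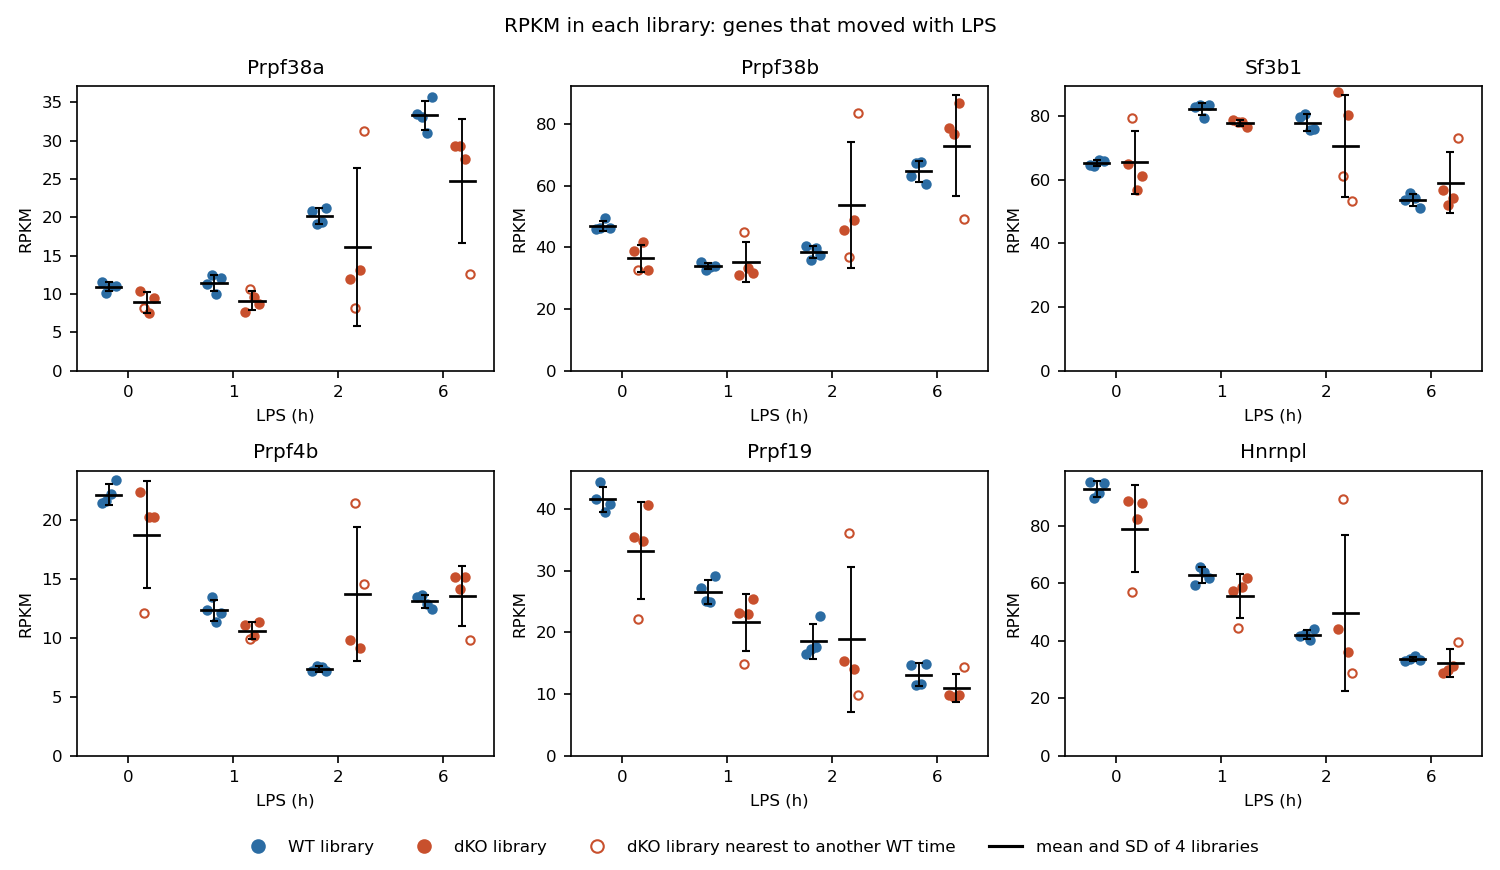
RPKM (y axis, linear, from 0) of Prpf38a, Prpf38b, Sf3b1, Prpf4b, Prpf19 and Hnrnpl against hours of LPS (x axis), 1 point per library, with bars for the mean and SD of 4 libraries and open points for the 5 dKO libraries nearest to another WT time. Prpf38a goes from 10.9 to 33.3 RPKM in WT cells and Hnrnpl from 92.8 to 33.6 RPKM.

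Most hnRNPs were lower by 6 h. In RPKM 8 of 18 hnRNP genes were lower at 1 h, 11 at 2 h and 14 at 6 h, where 45.5%, 68.5% and 60.9% of all genes were, with Hnrnpc alone higher at 6 h; after scaling the 6 h split was 4 higher and 5 lower. Hnrnpu, a nuclear matrix protein, went from 95.7 ± 1.79 RPKM at 0 h to 37.5 ± 3.81 at 6 h, Hnrnpr from 17.7 ± 1.74 to 6.26 ± 0.802, and Hnrnpa0, which binds AU-rich cytokine transcripts, from 62.1 ± 8.48 to 26.5 ± 4.64 (SD, n = 4). Their 6 h log2 changes were -1.34 ± 0.17, -1.43 ± 0.18 and -1.22 ± 0.17, all with adjusted p under that of Prpf19. Hnrnpk, the most abundant hnRNP over the 32 libraries, went from 102.3 to 73.7 RPKM, a log2 change of -0.47 ± 0.09 (adjusted p = 2.51e-05) that was 0.22 after scaling (adjusted p = 0.194). Hnrnpa3, Hnrnph2 and Hnrnph3 were called at none of the 3 times with all libraries. Without the 5 dKO libraries Hnrnph2 was called higher at 2 h (0.12, adjusted p = 0.0413) and 6 h (0.21, adjusted p = 0.00145), and Hnrnpa3 lower at 2 h (-0.66, adjusted p = 0.0496) and 6 h (-0.74, adjusted p = 0.0311).

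The SR proteins did not move as one in the first hour. In RPKM 6 of 11 were lower at 1 h, 8 at 2 h and all 11 at 6 h, against 45.5%, 68.5% and 60.9% of all genes, which the counts at 1 and 2 h lie near. After scaling the splits were 4 higher and 0 lower at 1 h, 4 and 3 at 2 h, and 3 and 4 at 6 h. Srsf1, the founding SR protein, went from 35.7 ± 1.03 RPKM at 0 h to 16.3 ± 0.910 at 2 h and 17.5 ± 0.866 at 6 h (SD, n = 4). Srsf7 read 26.8, 27.7, 27.0 and 25.8 RPKM at 0 h and 29.7, 30.9, 31.9 and 31.8 at 1 h. All 4 libraries were thus higher at 1 h, by a log2 difference of 0.21 ± 0.11 (adjusted p = 0.105), which was 0.68 (adjusted p = 0.000672) after scaling. With the 5 dKO libraries left out, Srsf7 and Srsf5 were both called higher at 1 h, in RPKM and after scaling. Srsf3, the smallest SR protein, read 29.3, 29.7, 28.5 and 28.7 RPKM at 0 h and 29.4, 33.2, 29.0 and 33.0 at 1 h, with a log2 difference of 0.10 ± 0.09 (adjusted p = 0.356). At 6 h Srsf3 and Srsf7 were called lower in RPKM, at -0.31 and -0.29, and higher after scaling, at 0.37 and 0.38, so their direction follows the scaling.

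The Sm ring genes were called lower together in RPKM and not after scaling. Of the 7 Sm ring genes 5 were lower at 1 h, 6 at 2 h and 7 at 6 h in RPKM, where 45.5%, 68.5% and 60.9% of all genes were lower. The scaled counts were 0 lower at each time, where 13.1%, 31.1% and 33.8% of all genes were lower, and 4 higher at 2 h, where 30.7% were. Snrpb, whose protein pairs with that of Snrpd3 in the ring, went from 101.9 ± 4.17 RPKM at 0 h to 61.0 ± 5.74 at 6 h (SD, n = 4). Snrpd1 went from 35.9 ± 2.53 to 16.9 ± 1.31 RPKM, a log2 change of -1.07 ± 0.15 that was the largest of the ring. Among the U1 and U2 proteins Snrpa1 went from 18.8 ± 1.66 to 7.35 ± 0.974 RPKM, a log2 change of -1.30 ± 0.18 (adjusted p = 5.51e-07) that was called after scaling too. In all, 29 of the 61 members were called lower in RPKM at each of the 3 times.

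Most genes of a cell-cycle list were called lower at 2 and 6 h of LPS as well. Of its 27 genes 6, 23 and 25 were lower at 1, 2 and 6 h in WT cells, where 45.5%, 68.5% and 60.9% of all genes were. Their medians were -0.40, -1.29 and -2.39, and their summed level went from 378 to 464.2 RPKM at 0 h to 112 to 119 RPKM at 6 h. A list of 9 neutrophil markers summed to 572 to 728.7 RPKM in WT cells at 0 h, 843 to 1269 RPKM at 1 h, 912.7 to 1187 RPKM at 2 h and 425 to 642.9 RPKM at 6 h. The 12 macrophage markers summed to 2134 to 2430 RPKM at 0 h, 2167 to 2576 at 1 h, 2114 to 2379 at 2 h and 763 to 1020 at 6 h. In these bulk cultures fewer cells of a kind and less RNA per cell cannot be told apart, and the part of dividing or other cells in the members' changes was not tested.

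In dKO cells most members called after LPS were lower in RPKM too. Counts of members called were 0 higher and 27 lower at 1 h (49.9% of all genes called, 5.82% higher and 44.1% lower). They were 4 and 33 at 2 h (62.9%, 9.17% higher and 53.8% lower), and 5 and 41 at 6 h (74.9%, 14.7% and 60.2%). The lower counts at 1 and 2 h lie near the shares of all genes. Without the 5 libraries the counts were 2 and 45 (77.3%, 9.49% higher and 67.8% lower), 6 and 46 (86.1%, 13.8% and 72.3%), and 5 and 48 (87.3%, 18.8% and 68.5%). With the scaling and all libraries they were 12 and 2 (12.8% higher and 11.1% lower over all genes), 13 and 3 (22.0% and 18.5%), and 22 and 11 (31.7% and 33.8%). Prpf38a read 10.5, 8.16, 7.54 and 9.54 RPKM in the dKO libraries at 0 h and 29.3, 29.3, 27.6 and 12.6 at 6 h, a log2 change of 1.35 ± 0.25 (adjusted p = 3.70e-05) that was 1.61 without the 5 libraries. Its low library at 6 h is replicate 4, the one nearest to 2 h. Prpf38b read 38.7, 32.7, 41.7 and 32.8 RPKM at 0 h and 78.8, 76.7, 86.8 and 49.3 at 6 h, a log2 change of 0.97 ± 0.17 (adjusted p = 2.41e-05) that was 1.09 without the 5. Hnrnpl and Prpf19 fell in dKO cells at 6 h by log2 changes of -1.27 ± 0.20 and -1.55 ± 0.24, which were -1.52 and -1.86 without the 5.

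Between the genotypes few members were called in all 32 libraries. Spike-in control entries took a larger share of signal in every WT library than in any dKO library, which cannot be told apart from genotype. At 0 h 5 members differed and all 5 were lower in dKO cells, where 6.84% of all genes were called, 0.932% higher and 5.91% lower. At 1 h 4 members were lower (10.9% of all genes called, 1.84% higher and 9.02% lower). At 2 h 3 were higher and 1 lower (12.4%, 5.15% higher and 7.24% lower), and at 6 h 1 was higher and 2 lower (14.8%, 4.55% and 10.2%). Without the 5 libraries 20 members were lower at 0 h (26.2% of all genes called, 6.75% higher and 19.4% lower), and 23 lower at 1 h (39.2% and 29.4%). There were then 3 higher and 14 lower at 2 h (33.1%, 9.29% higher and 23.8% lower), and 5 higher and 22 lower at 6 h (46.9%, 13.9% and 33.0%). With scaling as well they were 1 higher and 10 lower at 0 h (10.1% and 12.7% of all genes), 1 and 8 at 1 h (17.1% and 17.7%), 9 and 3 at 2 h (18.0% and 15.1%), and 8 and 10 at 6 h (22.6% and 20.2%). At 0 h 59 of 61 members had a log2 difference below 0, with a median of -0.25, against a median of -0.19 for all genes, and 26 members lay below every WT library in all 4 dKO libraries, as did 22.9% of all genes. With scaling and all libraries 1 member was lower at 0 h (3.07% of all genes lower), 1 lower at 1 h (6.27%), 4 higher and 2 lower at 2 h (8.55% and 9.73%), and 1 higher and 3 lower at 6 h (8.22% and 8.01%).

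SR proteins, 11 of the 61 members tested, gave 4 of the 9 calls at 0 and 1 h. These were Srsf3, counted at both times, Srsf10 at 0 h and Srsf7 at 1 h. With all libraries scaled only Srsf10 at 0 h and Srsf7 at 1 h kept their calls. Srsf7 read 26.8, 27.7, 27.0 and 25.8 RPKM in WT and 21.4, 21.3, 21.2 and 20.2 RPKM in dKO libraries at 0 h, and 29.7, 30.9, 31.9 and 31.8 against 23.8, 14.3, 20.3 and 20.8 at 1 h. Every dKO library lay below every WT library at both times, and at 2 h again. The log2 difference, dKO minus WT, was -0.34 ± 0.11 at 0 h (adjusted p = 0.0522), -0.66 ± 0.11 at 1 h (adjusted p = 9.20e-05), -0.35 ± 0.11 at 2 h (adjusted p = 0.0295) and -0.20 ± 0.11 at 6 h (adjusted p = 0.242). The 1 h difference was called after scaling (-0.46, adjusted p = 0.0231) and without the 5 libraries (-0.51, adjusted p = 6.03e-06). The exact two-sided permutation test over the 8 libraries gave p = 0.0286 at 1 h, the smallest that 4 against 4 can give. Srsf3 read 29.3, 29.7, 28.5 and 28.7 RPKM in WT and 23.8, 23.6, 22.0 and 22.4 in dKO libraries at 0 h, and 29.4, 33.2, 29.0 and 33.0 against 24.6, 23.7, 22.8 and 22.3 at 1 h. The groups did not overlap at either time, and the differences were -0.34 ± 0.09 (adjusted p = 0.0182) and -0.41 ± 0.09 (adjusted p = 0.00232). Leaving out the 5 libraries gave -0.35 (adjusted p = 7.0e-05) and -0.41 (adjusted p = 4.8e-06). With all libraries scaled they were -0.13 and -0.21, neither of them called, and scaled without the 5 they were -0.27 (adjusted p = 0.000752) and -0.29 (adjusted p = 0.000209). At 6 h the groups overlapped and the difference was 0.04 ± 0.09 (adjusted p = 0.787). Srsf10, an SR protein that represses splicing when it is dephosphorylated, read 11.3 ± 0.266 RPKM in WT and 7.93 ± 2.12 in dKO libraries at 0 h (SD, n = 4). The difference was -0.53 ± 0.16 (adjusted p = 0.0363), and it was -0.32 (adjusted p = 0.00488) without the 5 libraries.

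**Figure D4:**
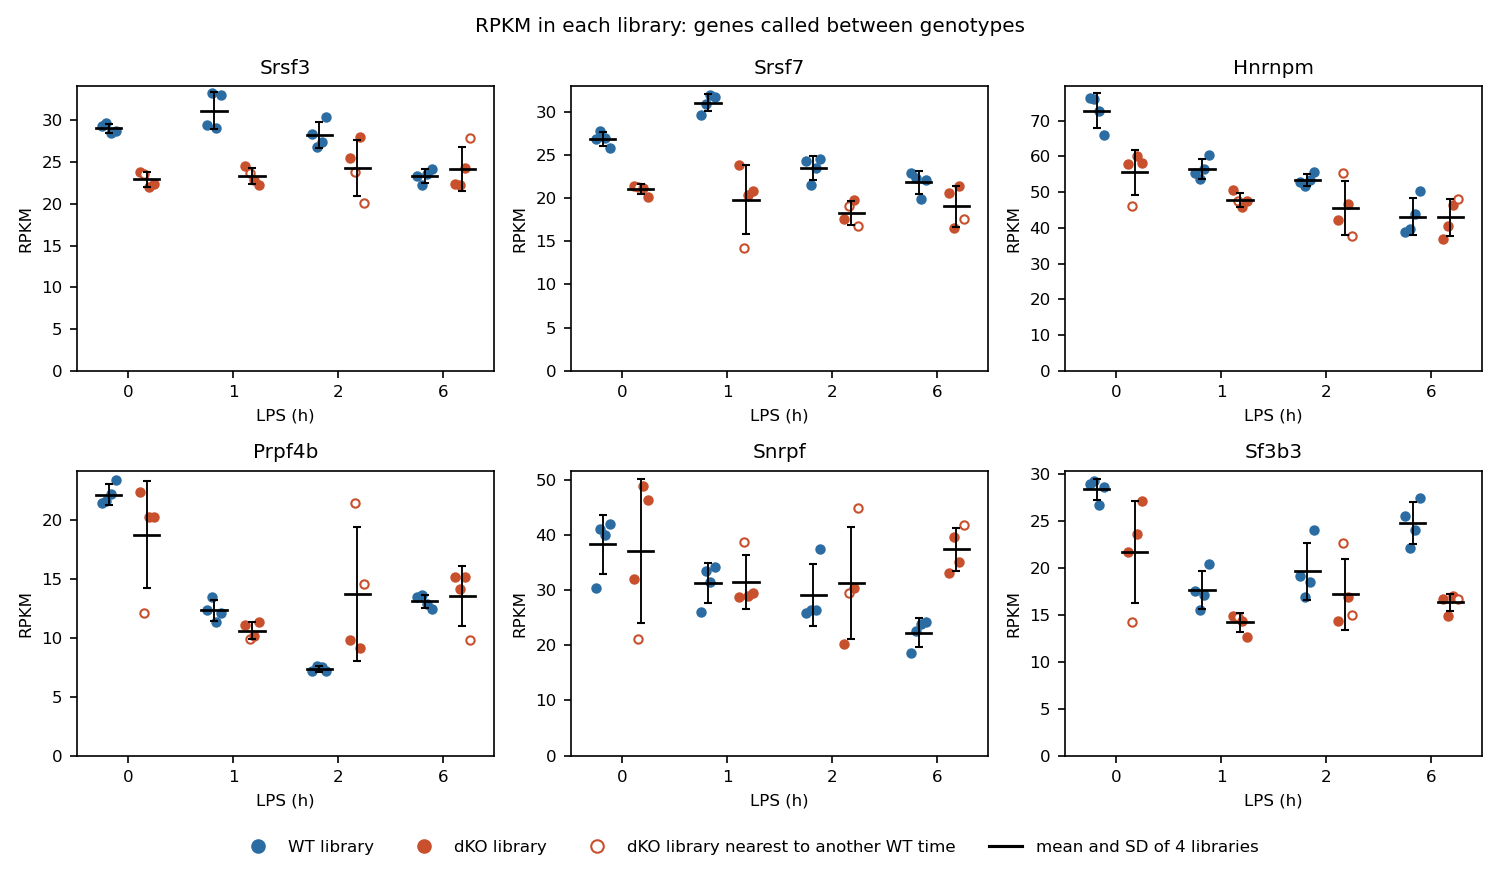
RPKM (y axis, linear, from 0) of Srsf3, Srsf7, Hnrnpm, Prpf4b, Snrpf and Sf3b3 in WT and dKO libraries against hours of LPS (x axis), 1 point per library, with bars for the mean and SD of 4 libraries and open points for the 5 dKO libraries nearest to another WT time. The 4 dKO libraries of Srsf7 lie below all 4 WT libraries at 0, 1 and 2 h, and those of Snrpf lie above the WT libraries at 6 h.

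Hnrnpm and Snrpd1 were also called lower in dKO cells at 0 h. Hnrnpm, a splicing repressor reported to slow the maturation of innate immune transcripts in macrophages, read 76.3, 76.2, 72.8 and 66.0 RPKM in WT and 57.8, 46.1, 60.0 and 58.2 in dKO libraries. All dKO libraries lay below the WT ones, and the lowest of them is the library nearest to 1 h. The difference was -0.39 ± 0.11 (adjusted p = 0.0226), -0.31 (adjusted p = 0.00447) without the 5 libraries and -0.19 (adjusted p = 0.49) after scaling. Snrpd1, a Sm ring protein, read 35.9 ± 2.53 against 25.8 ± 3.19 RPKM (SD, n = 4), a difference of -0.48 ± 0.15 (adjusted p = 0.0498) that had the same size without the 5 libraries (adjusted p = 0.00099) and was -0.27 (adjusted p = 0.557) with all libraries scaled. No member was called at 0 h when WT 0 h replicate 1 was left out, and none when replicate 2 was. At 1 h Hnrnpa2b1 (-0.41) and the tri-snRNP protein Prpf6 (-0.40) completed the list, and each lost its call when single WT libraries were left out. Both were called without the 5 libraries, at -0.35 (adjusted p = 0.000304) and -0.29 (adjusted p = 0.00112).

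At 2 h 3 Prpf genes were called higher in dKO cells, and the library labels bear on all 3. Prpf4b read 7.15, 7.63, 7.57 and 7.21 RPKM in WT and 9.80, 21.5, 9.12 and 14.6 in dKO libraries, where 21.5 and 14.6 RPKM are the libraries nearest to 0 and 6 h. The difference was 0.77 ± 0.19 (adjusted p = 0.00537), and with the 2 dKO libraries that matched their label, at 9.46 ± 0.485 RPKM (SD, n = 2), it was 0.34 (adjusted p = 0.000514). Prpf40b read 1.11 ± 0.195 against 2.10 ± 1.07 RPKM (SD, n = 4), a difference of 0.62 ± 0.21 (adjusted p = 0.0489) and of 0.40 (adjusted p = 0.0241) without the 5 libraries. Prpf39, a U1 snRNP accessory protein, had a difference of 0.35 ± 0.12 (adjusted p = 0.0455) that was 0.22 (adjusted p = 0.056) without them. Fitting the 8 libraries of this contrast alone called no member. In the other direction Prpf38a read 20.9, 19.2, 19.4 and 21.2 RPKM in WT and 11.9, 8.21, 13.2 and 31.3 in dKO libraries at 2 h, with 8.21 and 31.3 RPKM in the libraries nearest to 0 and 6 h. The difference was -0.49 ± 0.25 (adjusted p = 0.203) in all libraries and -0.66 (adjusted p = 2.01e-05) when those were left out, with 12.6 ± 0.893 RPKM in the 2 libraries that remained; this gene was picked out after its values were seen.

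At 6 h Sf3b3 was lower and Snrpf higher in dKO cells. Sf3b3, a large SF3b subunit, read 25.5, 22.1, 24.0 and 27.4 RPKM in WT and 16.6, 14.9, 17.0 and 16.7 in dKO libraries. The groups did not overlap, and the difference of -0.59 ± 0.15 (adjusted p = 0.00709) was -0.43 (adjusted p = 0.00968) after scaling and -0.60 (adjusted p = 4.91e-05) without the 5 libraries. Snrpf, a Sm ring protein, went the opposite way, at 18.5, 22.6, 23.8 and 24.3 RPKM in WT and 33.0, 39.5, 35.2 and 41.7 in dKO libraries. The difference was 0.73 ± 0.21 (adjusted p = 0.0166), 0.90 after scaling and 0.68 without the 5 libraries, and its call was lost when WT 6 h replicate 1 or dKO 6 h replicate 4 alone was left out. In dKO cells Snrpf stood at 37.1 ± 13.0 and 37.4 ± 3.97 RPKM at 0 and 6 h, whereas in WT cells it went from 38.3 ± 5.35 to 22.3 ± 2.60 RPKM (SD, n = 4). These dKO means include libraries nearest to another time. The dKO change minus the WT change at 6 h was 0.84 (adjusted p = 0.256), and 0.55 (adjusted p = 0.076) without the 5 libraries. Neither was called. Snrpg, another Sm ring gene, was lower in dKO cells, with a difference of -0.36 (adjusted p = 0.0474) whose call most single libraries left out ended. Its difference without the 5 libraries was -0.46 (adjusted p = 0.000193).

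Cell-cycle genes differed between the genotypes as well. Their summed level was 378 to 464.2 RPKM in WT and 220 to 291 RPKM in dKO libraries at 0 h, and 303 to 408.5 against 184 to 242 RPKM at 1 h. It was 215 to 265 against 103 to 242 RPKM at 2 h, and 112 to 119 against 95.2 to 175 RPKM at 6 h. Of the 27 genes 10, 18, 5 and 2 were lower in dKO cells at 0, 1, 2 and 6 h, where 5.91%, 9.02%, 7.24% and 10.2% of all genes were. Without the 5 libraries 27, 27, 21 and 18 were lower, where 19.4%, 29.4%, 23.8% and 33.0% of all genes were. The 9 neutrophil markers summed to 572 to 728.7 RPKM in WT and 206 to 411 RPKM in dKO libraries at 0 h. They summed to 843 to 1269 against 361 to 450 RPKM at 1 h, and 912.7 to 1187 against 243 to 396 RPKM at 2 h. At 6 h the sums were 425 to 642.9 against 239 to 402 RPKM. The part of these differences in those of the splicing genes was not tested.

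The response to LPS itself, compared as the dKO change minus the WT change, differed in no member that could be called by limma with all 32 libraries. Over all genes 0.0359%, 0.305% and 0.923% were called at 1, 2 and 6 h, at an adjusted p under 0.05. At an unadjusted p under 0.05 the members counted 1, 8 and 7 of 61. No unadjusted share of all genes is given, so these counts cannot be set against the adjusted shares. The median difference at 2 h was 0.20 over the members and 0.26 over all genes. Without the 5 libraries 0 members were called at 1 h (1.80% of all genes), 3 at 2 h (5.62%) and 6 at 6 h (20.3%). Those at 2 h were Prpf38b (0.61), Prpf4b (0.42) and Hnrnpc (0.26), all with a higher change in dKO cells. At 6 h Prpf38b (0.64), Prpf4 (0.39), Hnrnph2 (0.37), Srsf3 (0.32) and Prpf4b (0.25) had a higher and Snrpa (-0.39) a lower change. Prpf38b carried the largest of these differences. In the libraries that matched their labels it went from 37.7 ± 4.51 RPKM at 0 h (n = 3) to 80.8 ± 5.35 RPKM at 6 h (n = 3) in dKO cells, against 46.9 ± 1.63 to 64.6 ± 3.44 RPKM (n = 4) in WT cells (SD). The 2 contrasts share their 0 h libraries, where Prpf38b was lower in dKO cells by -0.32 (adjusted p = 0.00065) without the 5 libraries.

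Counts of other genes of the pathway, here and in the next paragraph, are to be read against the shares of all genes called. At 1, 2 and 6 h 45.5%, 68.5% and 60.9% of all genes were lower in RPKM, and 6.84%, 11.2% and 14.9% higher. After scaling 13.1%, 31.1% and 33.8% were lower, and 15.2%, 30.7% and 32.6% higher. Several counts lie near these shares, and others, such as the scaled higher count of the RNA-binding regulators at 2 h, do not. Of 49 further spliceosome components 30, 41 and 37 were lower in WT cells at 1, 2 and 6 h and 1, 1 and 0 higher, and after scaling 3, 5 and 11 were lower and 6, 20 and 16 higher. The Sm-like protein gene Lsm4 fell by a log2 change of -1.21 ± 0.16 at 6 h. It was also lower in dKO than in WT cells at all 4 times, at -0.80 ± 0.16 (adjusted p = 0.00134), -0.73 (adjusted p = 0.00232), -0.72 (adjusted p = 0.00282) and -0.60 (adjusted p = 0.011) from 0 to 6 h. These values without the 5 libraries were -0.62, -0.66, -0.82 and -0.66, all called. Ddx46, an RNA helicase of the U2 snRNP, and Bcas2, a partner of Prpf19, had log2 changes of -1.55 and -1.35 at 6 h. In the SMN complex and snRNP assembly list, whose proteins load Sm rings onto snRNAs, all 14 measured genes were lower at 1 h, 13 at 2 h and 12 at 6 h, with a median of -1.45 at 2 h. After scaling 6, 11 and 8 were lower, with medians of -0.48, -0.82 and -0.63. Its members Smn1, Gemin5 and Strap had 6 h changes of -1.23, -1.67 and -0.90.

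Among 16 splicing kinases and SR-related genes 6, 13 and 11 were lower and 0, 1 and 2 higher at 1, 2 and 6 h. The shares of all genes were 45.5%, 68.5% and 60.9% lower, and 6.84%, 11.2% and 14.9% higher. After scaling 2, 5 and 1 of the 16 were lower and 4, 6 and 9 higher. Srpk2, a kinase of SR proteins, had a log2 change of -2.08 ± 0.25 at 6 h (adjusted p = 1.46e-07), while its relative Srpk1 was lowest at 2 h, at -0.98, and stood at -0.41 at 6 h. Pnn, a splicing speckle protein, had its lowest value at 2 h too, at -1.52. Of 35 other RNA-binding splicing regulators 12, 19 and 19 were lower and 1, 3 and 3 higher, and after scaling 2, 7 and 8 lower and 14, 24 and 16 higher. Mbnl1 changed most among those named, by -2.38 ± 0.32 at 6 h, and Ewsr1 and Raly had log2 changes of -0.80 and -0.70. Of 9 minor spliceosome genes 4, 5 and 4 were lower and 1, 1 and 0 higher, against 2, 2 and 1 lower and 3, 4 and 4 higher after scaling. Pdcd7 and Snrnp25 of that list were at -1.64 at 2 h and -1.21 at 6 h, and Zmat5 was lower in dKO than in WT cells at 6 h by -1.03 ± 0.15 (adjusted p = 1.1e-05), and by -1.09 without the 5 libraries. Of the 5 exon junction genes none was called at 1 or 2 h and 4 were lower at 6 h in RPKM, among them Magoh (-0.87), Magohb (-0.80) and Eif4a3 (-0.39), whereas after scaling 2, 5 and 3 were higher and 0 lower.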

How the data were processed

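RNA of bone-marrow-derived dendritic cells was sequenced in 32 libraries, prepared from 4 ug of total RNA each with a TruSeq RNA v2 kit, which does not mark strand, so reads of overlapping antisense genes cannot be told apart. The authors deposited, per library, an RPKM value and a summed signal of aligned bases for each gene with mm9 coordinates. CASAVA 1.8.2 and mm9 are named per the submitters' processing notes; how multiply aligned reads were treated is not given in the sources used here. Signal divided by RPKM, set to bases with the spike-in entries, gave each gene's counted length. The 92 spike-in entries were otherwise left out. They took 0.133% to 0.328% of the signal in WT and 0.0943% to 0.127% in dKO libraries, without overlap. This difference runs with genotype and cannot be told apart from it, and its cause was not tested.

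Genes at 1 RPKM or more in at least 4 libraries (11154) were tested as log2(RPKM + 0.5) with limma 3.58.1 in R 4.3.3, with 8 group means over all 32 libraries, a trended prior and Benjamini-Hochberg adjustment per comparison at 0.05. Fold changes are on that log2 scale, which understates changes of low genes. Depth as read counts is not in the files, so no counting interval is given. The test was checked on simulated data with known changes.

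Alternatives were pseudocounts of 0.1 and 1, no filter or a filter at 5 RPKM, median-of-ratios scaling, quantile normalization, only the libraries of a contrast, a replicate block, each library left out in turn, and the 5 dKO libraries nearest to another time left out. Some values of single genes are not reported here. The members and gene lists were chosen with earlier results of these data known. Named genes were up to 8 of the highest and lowest called members per comparison, the most and least abundant member of each class, up to 3 per related list by smallest adjusted p, and those stated as chosen after their values were seen. Python 3.11.15, pandas 2.3.3, numpy 2.4.6 and matplotlib 3.10.9 were used.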

Additional observations from a re-analysis of the deposited data

Results flagged for a closer look

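In groups of 4 libraries, 21 of 168 checks found 1 library far from the other 3, where chance gives about 1 in 20. In dKO at 0 h, replicate 2 was the low library for the summed RPKM of Prpf genes (189, the others 261 to 270.4), SF3a (32.3), SF3b (181), SR proteins (345), U1 and U2 snRNP proteins (77.8) and all members (1829), and for Srsf2 (49.0) and Hnrnpm (46.1). This is the library nearest to WT 1 h. In dKO at 6 h, replicate 4, nearest to WT 2 h, was high for all members (1803), Prpf19 (14.4) and Srsf2 (66.2) and low for Prpf38a (12.6). In dKO at 1 h, replicate 1 was high for the U1 and U2 proteins (86.1) and replicate 2 for Snrpf (38.8). In WT at 2 h, replicate 4 was high for the Prpf genes (195), the Sm ring (319) and Snrpf (37.5). In the other WT groups, the hnRNP sum of 1 h replicate 4 (896) and Prpf38b in 0 h replicate 3 (49.4) were high, and Sf3b1 in 1 h replicate 3 (79.5) and Snrpf in 0 h replicate 1 (30.4) were low.

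The change with LPS differed between the genotypes in 9 member tests without the 5 libraries, by limma's test of the difference: 3 of 61 members at 2 h and 6 of 61 at 6 h, where 5.62% and 20.3% of all genes were called. The dKO change minus the WT change at 2 h was 0.26 for Hnrnpc, 0.61 for Prpf38b and 0.42 for Prpf4b. At 6 h it was 0.37 for Hnrnph2, 0.64 for Prpf38b, 0.39 for Prpf4, 0.25 for Prpf4b, 0.32 for Srsf3 and -0.39 for Snrpa, the last of which was -0.33 and not called once scaled (adjusted p = 0.082). With all 32 libraries none of these was called.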

How the results depend on the processing

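Counts of members called moved with scaling, with the 5 dKO libraries nearest to another time and with the libraries fitted; the cause was not tested. For dKO against WT at 0 h (5 called) the counts were 3 with a pseudocount of 0.1, 1 with median-of-ratios scaling, 3 with quantile normalization, 2 with the replicate block, 20 without the 5 libraries and 11 without them and scaled. At 1 h (4 called) they were 1 with scaling, 1 with quantile normalization, 10 with only the contrast's libraries, 2 with the replicate block, 23 without the 5 and 9 without them and scaled. At 2 h (4 called) they were 0 with only the contrast's libraries, 17 without the 5 and 12 without them and scaled, and at 6 h (3 called) 27 and 18. For WT LPS, 1 h (35 called) gave 13 with scaling and 55 with only the contrast's libraries, and 6 h (53 called) gave 30 with scaling. For dKO LPS, 1 h (27 called) gave 14 with scaling, 14 with quantile normalization, 4 with only the contrast's libraries and 47 without the 5, and 2 h (37 called) gave 16 with scaling and 0 with only the contrast's libraries. The difference in response at 2 h (0 called) gave 1 with scaling, 1 with quantile normalization, 3 without the 5 and 7 without them and scaled, and at 6 h (0 called) 6 and 8. WT 2 h against 1 h (18 called) gave 11 with scaling, 33 with only the contrast's libraries, 9 with the replicate block and 34 without the 5, and WT 6 h against 2 h (26 called) gave 47, 17 and 48 for the last 3 of these settings.

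With single libraries left out, counts ran from 0 to 5, 2 to 3, 1 to 5 and 1 to 3 for dKO against WT at 0, 1, 2 and 6 h, from 25 to 33, 44 to 46 and 49 to 53 for WT LPS, and from 13 to 40, 22 to 46 and 42 to 49 for dKO LPS. They ran from 0 to 0, 0 to 1 and 0 to 0 for the differences in response, and from 8 to 12 and 16 to 20 for the WT steps from 1 to 2 h and 2 to 6 h. Of 3114 alternative values for 166 named gene results, 2794 kept direction and call, 217 lost and 87 gained the call, and 16 reversed. Scaling reversed Hnrnpm (0.12) and Prpf38b (0.015) in WT at 1 h, Srsf3 (0.74), Hnrnpm (0.35), Srsf7 (0.59) and Sf3b3 (0.25) at 2 h, and Srsf3 (0.37), Srsf7 (0.38), Sf3b1 (0.40) and Sf3b3 (0.48) at 6 h. Quantile normalization reversed Srsf3 in WT at 2 h (0.29) and 6 h (0.0071) and Srsf7 at 6 h (0.059). Without the 5 libraries and scaled, dKO against WT at 2 h reversed for Hnrnpc (0.18) and Sf3b1 (0.24), as did the 2 h response of Sf3b1 (0.27). Replicate numbers were not used as pairs: same-numbered libraries correlated above 0.1 in 1 of 16 pairs across genotypes at 1 time, 16 of 24 across times within WT and 5 of 24 within dKO.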
